A study of Oryza sativa Japonica Group with 49 samples.

Results

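In seedlings, 90 of 55986 rice gene models were expressed in 1 japonica variety and nearly silent in the other: 36 in Zhonghua 11 (ZH11; the ZH11-only genes) and 54 in Dongjin (DJ; the DJ-only genes). A gene was taken when it had at least 1 CPM (its count over the total count of the library, scaled as usual) in every seedling library of 1 variety and at most 0.1 CPM in every seedling library of the other. These levels in 9 ZH11 and 6 DJ seedling libraries chose the genes, so the difference between the varieties is described here and was not tested. The lists made up 0.225% of the 16025 genes that reached the minimum in every ZH11 seedling library and 0.313% of the 17235 genes that did so in every DJ seedling library.

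The libraries came from bulk tissue of ZH11 and DJ plants raised in pots. Seedlings at the 4-leaf stage were sampled under normal, drought or heat conditions in ZH11 and under normal or drought conditions in DJ, in triplicate, and panicles of ZH11 under normal or heat conditions with 2 libraries per group. A separate experiment compared the T-DNA insertion mutant onac023, 1 line in the DJ background that disrupts the NAC transcription factor gene ONAC023, with its wild-type control, titled DJ in the labels and called DJ-WT here, under drought and under heat, with 3 libraries per group and none under normal conditions. According to the labels, drought meant withholding water for 7 days and heat meant 45 °C for 6 h. The paper gives other durations for seedlings sampled for expression, the labels give no separate duration for panicles, and the labels do not say whether replicates came from separate plants. The paper's methods state that several seedlings of each treatment repeat went into sequencing. For panicles they state nothing of this kind, so p-values there measure the spread between those libraries, which may be technical.

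Presence and absence of whole genes is a common form of variation between rice varieties, and it is known to be frequent among the nucleotide-binding leucine-rich repeat (NLR) genes, which encode intracellular receptors of pathogen effectors and lie in clusters, many of them on chromosome 11. Leucine-rich repeat (LRR) receptor-like proteins at the cell surface and transposable elements vary in the same manner. Reads aligned to a single reference genome give low counts for a gene that a variety lacks, for one that it does not transcribe, and for one whose sequence differs too much to align. These cannot be told apart in the counts.

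Several library properties bear on the results. Total counts ranged from 40829670 to 117202626 in ZH11 seedlings, from 39789339 to 59873534 in DJ seedlings, from 93875495 to 132110274 in panicles and from 40091745 to 63406027 in the DJ-WT and onac023 libraries. The most frequent low count was 4 in the ZH11 libraries of normal and heated seedlings and of panicles, but 2 in ZH11 drought seedlings and in every other library, so this step and the drought treatment of ZH11 cannot be told apart. The floral genes OsMADS2 and OsMADS4 stood at 0 to 1.89 CPM and 0.0356 to 1.43 CPM in the seedling libraries and at 167 to 230 CPM and 41.1 to 89.3 CPM in the panicles. The leaf genes OsRBCS2, OsRBCS4 and CAB2R were present in both tissues, at 19.5 to 8005, 7.66 to 2534 and 44.2 to 6412 CPM in seedlings and at 58.0 to 564, 344 to 624 and 5531 to 7211 CPM in panicles. The targeted gene ONAC023 (LOC_Os02g12310) was lower in every onac023 library, with 6, 4 and 9 counts under drought and 0, 2 and 0 under heat, than in any DJ-WT library, with 65 to 257 and 105 to 180. The libraries labelled DJ-WT held the genes of both lists, as given below, and so are named by their label throughout.

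The study's tables pair 5048 identifiers with an annotation, out of 55986 gene models. Among those were 11 of the 36 ZH11-only and 23 of the 54 DJ-only genes. A gene outside those tables has no description here, whatever is known of it elsewhere. Shares of annotation classes among all 5048 identifiers were not computed. Disease resistance, NB-ARC or LRR proteins were the best described class, with 3 ZH11-only and 5 DJ-only genes. In ZH11 they were LOC_Os06g22460, the blast resistance gene Pi25|Pid3 and the only gene of both lists with a symbol, LOC_Os01g57270, an RPP13-like resistance protein, and LOC_Os11g32810, an LRR protein. In DJ they were LOC_Os01g06890 and LOC_Os11g35490, both LRR proteins, LOC_Os01g06900, similar to the Verticillium wilt resistance receptor Ve2 of tomato, LOC_Os11g39160, an NBS-LRR protein, and LOC_Os11g39190, an NB-ARC protein. Members of such families can have near-identical copies, and reads shared between copies could be split by the counting, so their counts are uncertain to that extent.

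The other described genes were few. The DJ-only list held 4 models annotated as transposons or retrotransposons (LOC_Os06g28530, LOC_Os06g28990, LOC_Os06g33040 and LOC_Os09g39300), a putative jasmonate O-methyltransferase (LOC_Os06g21820), a class of enzymes that makes the volatile methyl jasmonate, and an acyl-CoA dehydrogenase domain protein (LOC_Os06g23870). The ZH11-only list held a BURP domain protein (LOC_Os02g18690), a putative sterol glucosyltransferase (LOC_Os04g04240) and a tRNA-splicing endonuclease effector-related protein (LOC_Os03g32526). Another 5 ZH11-only and 12 DJ-only genes were described as expressed proteins and no more.

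In the variety where they were silent, most of the genes had almost no counts. All libraries of the other variety stood at 0 counts for 25 of the 36 ZH11-only and 27 of the 54 DJ-only genes, and at 3 counts or fewer for 34 and 34. The highest single values were 4 counts (0.0953 CPM) and 11 counts (0.0939 CPM). Taking 3 counts in a library as the floor, the mean in normal seedlings was at least 24.6-fold to at least 2439-fold higher in ZH11 for the 34 ZH11-only genes that allow such a bound (median bound 115) and at least 48.1-fold to at least 2624-fold higher in DJ for 39 DJ-only genes (median bound 321). These bounds hold only for that floor and take in no variation beyond counting error. In the normal ZH11 libraries, where the most frequent low count was 4, the floor of 3 counts lay below 1 such step. In the normal DJ libraries that count was 2, so the bounds of the DJ-only genes are the less secure.

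Where they were expressed, the genes lay below the middle of the expressed genes. The median of the mean CPM in normal seedlings was 7.88 for the ZH11-only genes (range 1.76 to 174) against 20.1 over all genes at the minimum in ZH11, a level that 10 of the 36 exceeded. For the DJ-only genes it was 12.3 (range 1.63 to 444) against 24.6, exceeded by 14 of the 54. CPM are not corrected for gene length, so they rank genes by their share of reads and not by transcripts.

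**Figure D1:**
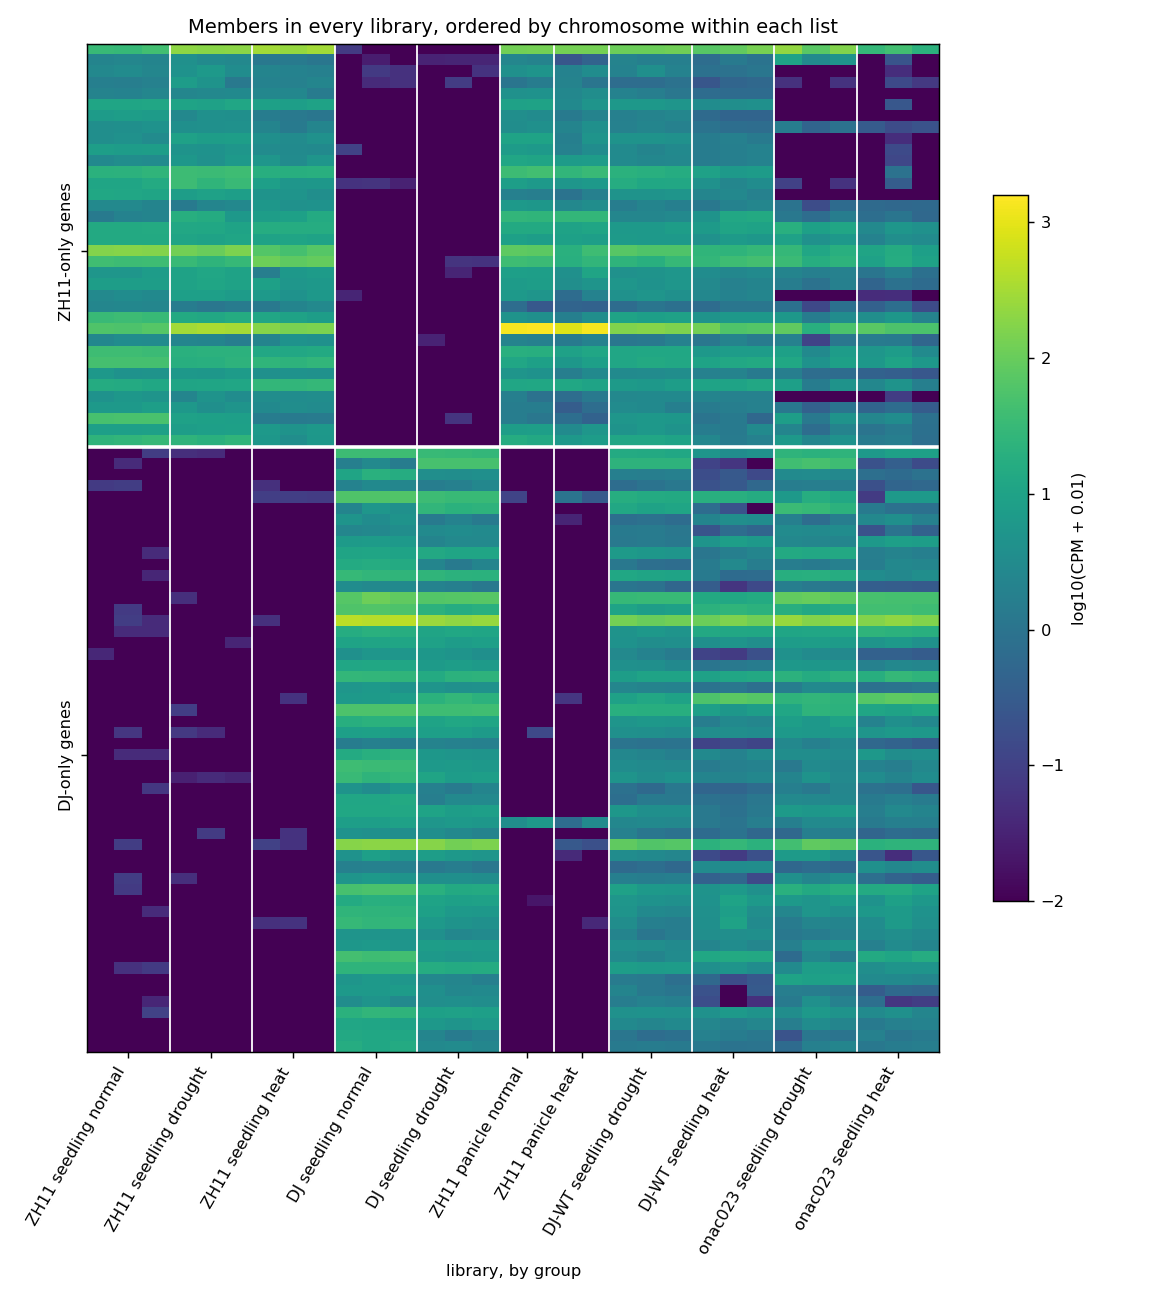
Each row is 1 of the 90 genes and each column 1 of the 31 libraries, and the colour gives log10(CPM + 0.01). White lines separate the groups and the lists. The ZH11-only block is dark in the 6 DJ seedling columns and the DJ-only block in the 9 ZH11 seedling columns, as the choice of genes requires. The DJ-only block is also dark in most cells of the 4 panicle columns, both blocks are bright in the DJ-WT columns, and 13 ZH11-only genes are dark in the onac023 drought columns.

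The 5 genes with the highest CPM in each list differed widely. In normal ZH11 seedlings they were LOC_Os11g37759 (174, 177 and 172 CPM in the 3 libraries), LOC_Os12g13674 (59.2, 56.1 and 66.8), LOC_Os12g21784 (48.9, 51.5 and 50.3), LOC_Os12g15222 (47.2, 46.3 and 46.1) and LOC_Os11g38330 (39.7, 36.3 and 38.1), none of which has a description in the study's tables. In normal DJ seedlings they were LOC_Os06g23870 (460, 418 and 455 CPM), LOC_Os11g34824 (182, 198 and 188), LOC_Os06g21820 (69.0, 111 and 86.5), LOC_Os04g01330 (58.9, 58.1 and 62.8) and LOC_Os06g22394 (58.4, 60.1 and 55.8). The replicates of each gene lay close together, except for the putative jasmonate O-methyltransferase LOC_Os06g21820.

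The thresholds divided genes of similar level. Just inside the minimum, the lowest ZH11 library stood at 1.11 CPM for both LOC_Os01g57270 and LOC_Os05g30730, and just outside it stood at 0.828 CPM for LOC_Os03g15260 and 0.723 CPM for LOC_Os06g30430, a resistance protein model of the RPM1 type. On the DJ side, LOC_Os11g37250 and LOC_Os06g21750 had 1.13 and 1.18 CPM and were kept, and LOC_Os11g46810 and LOC_Os01g02530 had 0.858 and 0.856 CPM and were not. At the maximum, the highest DJ library stood at 0.0953 and 0.0754 CPM for LOC_Os08g15590 and LOC_Os03g32526, kept as ZH11-only, and at 0.1002 and 0.1005 CPM for LOC_Os11g31430 and the retrotransposon model LOC_Os03g37240, left out. The highest ZH11 library stood at 0.0939 and 0.0936 CPM for LOC_Os12g11830 and LOC_Os11g34824, kept as DJ-only, and at 0.1185 and 0.1195 CPM for LOC_Os07g33290 and LOC_Os09g18594, left out.

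The genes were unevenly spread over the chromosomes, as read from the identifiers, which number the gene models in order along each chromosome. Chromosomes 11 and 12 together carried 14.65% of all gene models, but 23 of the 36 ZH11-only genes (63.9%) and 22 of the 54 DJ-only genes (40.7%). Chromosome 12 held 13 ZH11-only and 5 DJ-only genes, and chromosome 11 held 10 and 17. Chromosome 6 carried 12 DJ-only genes (22.2% of the list, against 8.44% of all models) and 2 ZH11-only genes. Chromosomes 2, 3 and 10 held 0 DJ-only genes, and chromosome 7 held 0 ZH11-only genes. No coordinates are given, since the reference gene table used here shares no identifiers with the count tables.

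**Figure D2:**
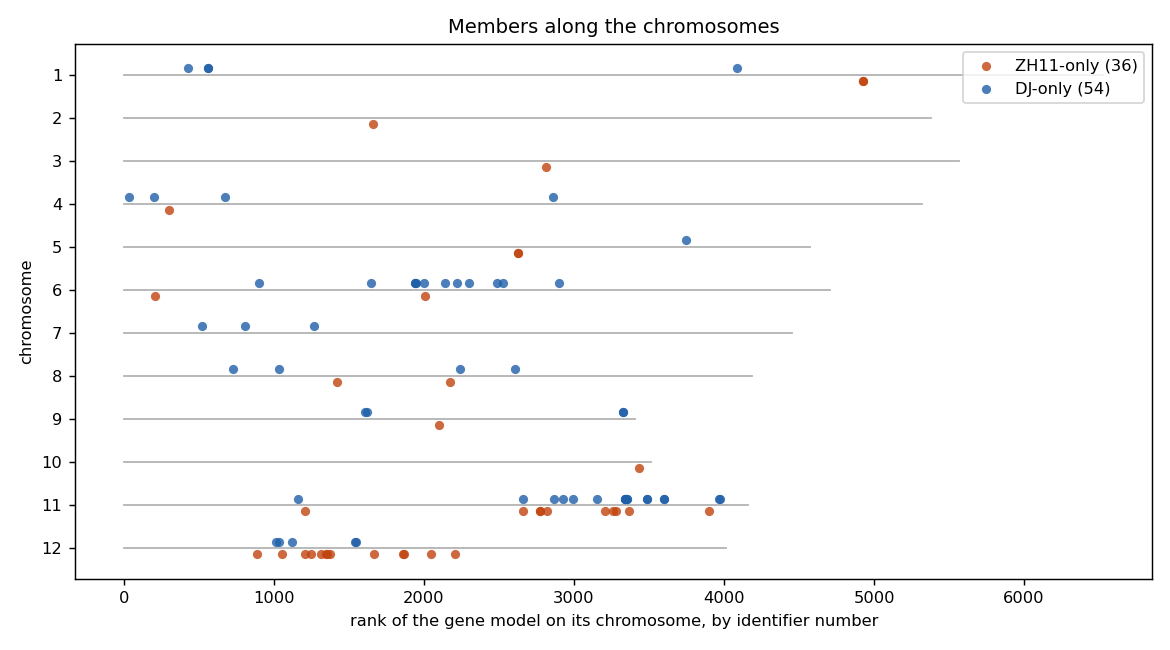
The 90 genes are placed by the rank of their identifier among all gene models of the chromosome (horizontal axis), with 1 line per chromosome drawn to its number of models, DJ-only genes above the line and ZH11-only genes below it. The points crowd on chromosomes 11 and 12 and, for the DJ-only genes, on the middle part of chromosome 6.

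Within chromosomes, 35 of the 90 genes (38.9%) stood at most 10 ranks from another gene of the lists, in 16 runs. Of these runs, 13 held genes of 1 list, and 6 contained directly adjacent models: LOC_Os01g06890 and LOC_Os01g06900, LOC_Os05g30720 and LOC_Os05g30730, LOC_Os09g39290 and LOC_Os09g39300, LOC_Os11g39310 and LOC_Os11g39320, LOC_Os11g40760 and LOC_Os11g40770, and LOC_Os11g42030 and LOC_Os11g42040. The longest runs had 3 genes: LOC_Os06g21730, LOC_Os06g21750 and LOC_Os06g21820 (DJ-only), the NLR models LOC_Os11g39160 and LOC_Os11g39190 with LOC_Os11g39209 (DJ-only), and LOC_Os11g39310 and LOC_Os11g39320 (DJ-only) with LOC_Os11g39430 (ZH11-only). Genes of opposite lists were also close at Pid3, where the DJ-only LOC_Os06g22394 lay 7 ranks from the ZH11-only LOC_Os06g22460, and at LOC_Os11g31630 (DJ-only) and LOC_Os11g31660 (ZH11-only), 3 ranks apart.

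The members did not fill the stretches in which they lay. Between LOC_Os11g31630 and LOC_Os11g42040, 22 genes of the lists (8 ZH11-only, 14 DJ-only) stood among 242 genes at the minimum in at least 1 variety (9.09%), of which 178 reached it in every library of both. Between LOC_Os12g10330 and LOC_Os12g25494 there were 18 (13 and 5) among 185 (9.73%), with 134 at the minimum in both. Between LOC_Os06g18150 and LOC_Os06g33040 there were 12 (1 and 11) among 214 (5.61%), with 170 at the minimum in both. Over all chromosomes the lists made up 0.502% of 17926 such genes. The ends of these stretches were chosen from where the members lay, so the shares are a description.

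In ZH11 panicles, which the choice of genes did not use, the lists kept the pattern of ZH11 seedlings in most genes. Of the 36 ZH11-only genes, 29 (80.6%) had at least 1 CPM in all 4 panicle libraries, against 96.3% of the 16025 genes at the minimum in ZH11 seedlings, and none was at 0.1 CPM or less in all 4. Of the 54 DJ-only genes, 50 (92.6%) stood at 0.1 CPM or less in all 4, 45 of them at 0 counts, against 0.615% of the 17235 genes at the minimum in DJ seedlings. The ZH11-only genes below 1 CPM in at least 1 panicle library were LOC_Os01g57270, LOC_Os11g13934, LOC_Os11g45090, LOC_Os12g10330, LOC_Os12g18550, LOC_Os12g21730 and LOC_Os12g21784.

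Individual genes departed from their seedling level. LOC_Os12g13674 had 59.2, 56.1 and 66.8 CPM in normal seedlings but 1360 and 1496 CPM in normal panicles and 870 and 1318 CPM in heated ones. LOC_Os12g21784 went the other way, from 48.9, 51.5 and 50.3 CPM in normal seedlings to 1.63 and 1.13 CPM in normal panicles and 0.756 and 0.424 CPM in heated ones. Tissue and sampling stage differ together here, and in bulk tissue fewer expressing cells and less RNA per cell cannot be told apart. Among the DJ-only genes, 4 exceeded 0.1 CPM in some panicle library. LOC_Os11g31630 had 3.59 and 5.88 CPM in normal and 0.7 and 3.03 CPM in heated panicles although every ZH11 seedling library stood at 0. The others were lower, LOC_Os04g01330 at 0.105 and 0 CPM and then 0.971 and 0.28 CPM, LOC_Os08g11720 at 0.128 CPM in 1 normal library, and LOC_Os11g34824 at 0 CPM in both normal and 0.279 and 0.174 CPM in the heated libraries.

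Panicle heat, with 2 libraries per group, moved few of these genes. Of the 36 ZH11-only genes, 0 were called higher and 1 lower in heated than in normal panicles by edgeR's quasi-likelihood test (adjusted p under 0.05 and fold change over 2), where 8.57% and 1.69% of all genes tested were called higher and lower, and 10 of the 36 had an unadjusted p under 0.05. The gene called was LOC_Os01g57270, the RPP13-like gene, which fell from 2.40 and 2.14 CPM to 0.231 and 0.447 CPM without overlap (log2 fold change -2.31, SE 0.40, adjusted p = 0.0290). This count rests on single libraries, at 0 without normal replicate 1 and 6 without heat replicate 2, and LOC_Os01g57270 itself lost the call without either normal library or heat replicate 1 (log2 fold changes -2.39 to -2.02). DESeq2's Wald test called 3 genes lower and the fit with no size factors beyond the library total 5. Only 3 of the 54 DJ-only genes passed the filter on low counts. LOC_Os11g34824 was among them through its heated libraries alone, so its test is not given.

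Under drought in ZH11 seedlings, more of the ZH11-only genes fell than rose after TMM normalization between libraries, an order that reversed on plain library totals. All 36 were tested, 3 rose (8.33%), 7 fell (19.4%) and 26 were not called, while 26.2% of all genes tested rose and 16.9% fell. Of the 16025 genes at the minimum in every ZH11 seedling library, a level that the lists required, 14.2% rose and 18.4% fell. The median log2 fold change was -0.63 over the list and 0.07 over all genes tested. The split depended on the scaling: TMM normalization lowered the log2 fold changes of this comparison by 0.44 relative to plain CPM, and with the library total alone 6 genes of the list rose and 4 fell (76.4% of the calls over all genes were then upwards, against 60.8%). Without drought replicate 3, 5 genes of the list rose.

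Of the genes that rose in ZH11 under drought, LOC_Os12g13674 went from 59.2, 56.1 and 66.8 CPM to 306, 348 and 310 CPM. The groups were far apart, and edgeR's quasi-likelihood test gave a log2 fold change of 1.97 (SE 0.09, Benjamini-Hochberg adjusted p = 1.15e-05). LOC_Os01g57250, an expressed protein of unknown function next but 1 to LOC_Os01g57270, went from 32.6, 30.4 and 43.1 CPM to 203, 185 and 198 CPM (log2 fold change 2.03, SE 0.13, edgeR adjusted p = 2.93e-05). LOC_Os11g32780 went from 1.33, 2.00 and 2.18 CPM to 18.2, 16 and 5.8 CPM (2.43, SE 0.44, edgeR adjusted p = 0.00247), with replicate 3 lowest under drought but above every normal library.

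The genes that fell under drought were led by LOC_Os12g21784, which dropped from 48.9, 51.5 and 50.3 CPM to 9.25, 9.20 and 8.60 CPM (log2 fold change -2.92, SE 0.08, edgeR adjusted p = 4.96e-06). LOC_Os12g12115 dropped from 33.2, 36.6 and 31.8 CPM to 14.1, 13.4 and 16.2 CPM, and LOC_Os12g15222 from 47.2, 46.3 and 46.1 CPM to 18.1, 18.6 and 23.2 CPM, each with a log2 fold change of -1.66 (SE 0.12). The groups did not overlap in any of these, nor in any of the 10 genes called. Called or not, 28 of the 36 genes of the list had no overlap in plain CPM, which lacks the TMM scaling. LOC_Os11g39430 was among them at a log2 fold change of -0.02. The share over all genes was not computed, so this count is no result about the list. Pid3 stood at 3.77, 4.20 and 3.25 CPM in normal and at 9.52, 7.86 and 8.30 CPM in drought libraries (means 3.74 and 8.56). Its log2 fold change after TMM of 0.75 (SE 0.18, edgeR adjusted p = 0.00837) was short of the fold threshold. TMM lowered the log2 fold changes of this comparison by 0.44, so that outcome depends on the scaling.

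Under heat in ZH11 seedlings, 14 ZH11-only genes were called. Of the 36 ZH11-only genes, 5 rose (13.9%), 9 fell (25.0%) and 22 were not called, against 31.4% and 24.5% of all genes tested and 20.7% and 25.9% of those at the minimum in every ZH11 seedling library. The median log2 fold change was -0.27 over the list and 0.09 over all genes. TMM moved this comparison by 0.08, and without it 4 rose and 10 fell.

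LOC_Os12g21784 showed the strongest fall, to 1.52, 1.39 and 1.48 CPM under heat from 48.9, 51.5 and 50.3 CPM, 32.5-fold lower (log2 fold change -5.02, SE 0.12, edgeR adjusted p = 1.04e-05). LOC_Os12g25494 fell from 23.6, 26.3 and 31.1 CPM to 5.64, 3.50 and 5.68 CPM (-2.39, SE 0.17), and LOC_Os11g37759, the ZH11-only gene with the highest CPM in normal seedlings, from 174, 177 and 172 CPM to 64.4, 47.1 and 66.5 CPM (-1.49, SE 0.12). Heated and normal libraries did not overlap in any of the 14 genes called. Called or not, 29 of the 36 genes of the list had no overlap in plain CPM. The share over all genes was not computed, so this count is no result about the list. The rises were led by LOC_Os01g57250, at 301, 244 and 307 CPM under heat (log2 fold change 3.09, SE 0.16, edgeR adjusted p = 1.77e-05), which was 8.50-fold higher than in normal seedlings. LOC_Os12g13674 reached 179, 142 and 150 CPM (1.45, SE 0.11) and LOC_Os11g38330 rose from 39.7, 36.3 and 38.1 CPM to 115, 80.4 and 94.8 CPM (1.42, SE 0.11). Pid3, at 3.85, 3.2 and 4.22 CPM under heat, overlapped its normal level (log2 fold change 0.08).

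The drought and heat comparisons share the 3 normal ZH11 libraries, so their values are set side by side and an overlap of their calls is not a separate result. LOC_Os05g30730 had log2 fold changes of -1.49 (SE 0.20) under drought and -2.44 (SE 0.20) under heat, LOC_Os08g15590 of -1.14 and -1.31, LOC_Os12g14840 of -1.24 and -1.35, and LOC_Os12g12115 of -1.66 and -1.70. LOC_Os11g32780 had 2.43 (SE 0.44) and 2.63 (SE 0.32). Each of these 10 values was called, but LOC_Os08g15590 was short of the fold threshold under drought without TMM (-0.70).

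**Figure D3:**
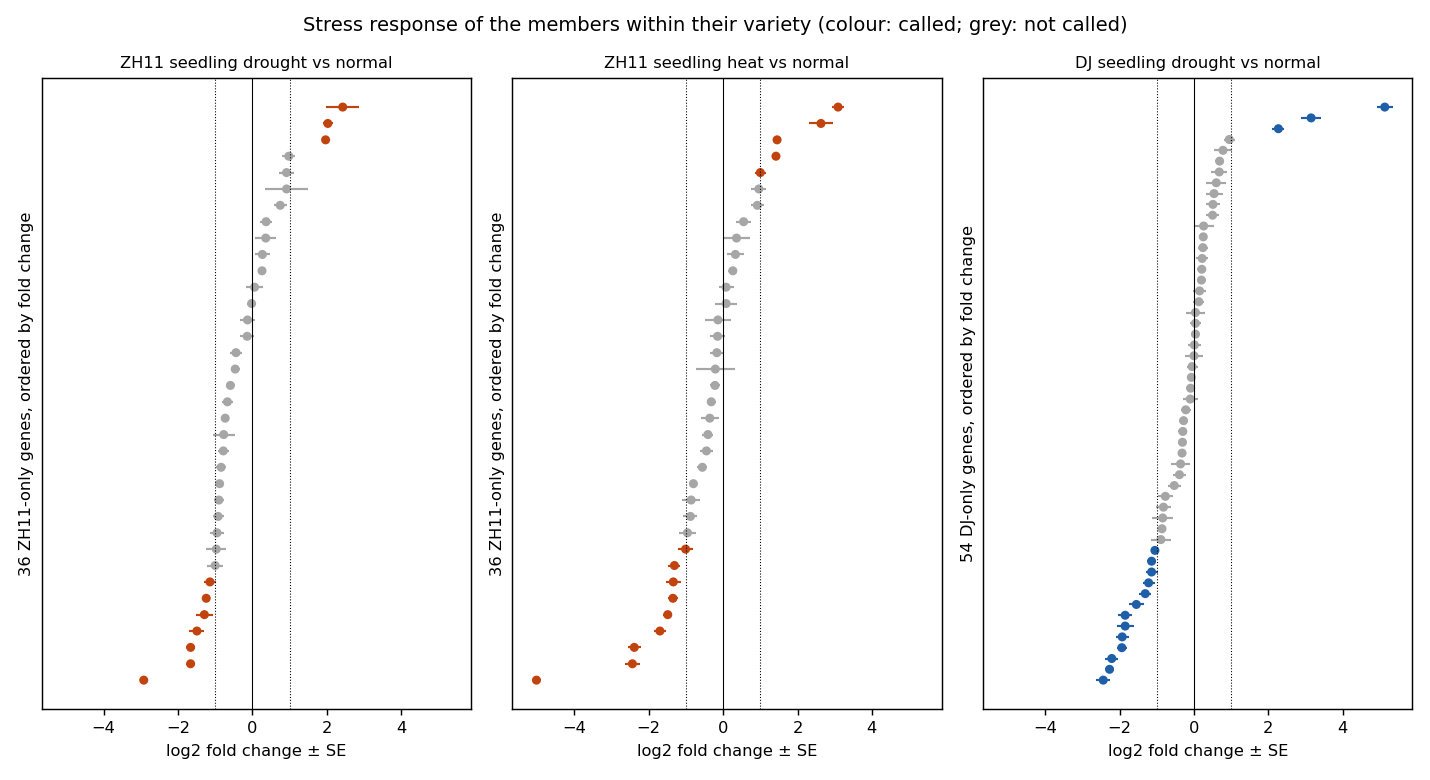
Each point is the log2 fold change (stress over normal) of 1 gene with its SE as a bar, genes ordered by fold change in each panel, for the 36 ZH11-only genes under drought and heat and the 54 DJ-only genes under drought. Coloured points were called (edgeR adjusted p under 0.05, fold change over 2), grey points were not, and dotted lines mark the fold threshold. LOC_Os12g21784 lies lowest in both ZH11 panels and LOC_Os01g06890 highest in the DJ panel, at 5.13.

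Drought in DJ seedlings lowered 13 of the 54 DJ-only genes (24.1%) and raised 3 (5.56%), with 38 not called, while 29.1% of all genes tested fell and 25.2% rose. Of the 17235 genes at the minimum in every DJ seedling library, 23.6% fell and 24.1% rose. The median log2 fold change was -0.10 over the list and -0.14 over all genes. TMM raised the fold changes of this comparison by 0.55 relative to plain CPM, and with the library total alone 19 genes of the list fell and 3 rose (30.2% of the calls over all genes were then upwards, against 46.4%).

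The adjacent receptor-like genes LOC_Os01g06890 and LOC_Os01g06900 moved in opposite directions. The LRR protein gene LOC_Os01g06890 rose from 1.74, 2.81 and 1.5 CPM to 49.2, 48.9 and 48.4 CPM, 34.9-fold (log2 fold change 5.13, SE 0.22, edgeR adjusted p = 8.83e-08). The Ve2-like gene LOC_Os01g06900 fell from 10.7, 19.98 and 16.6 CPM to 3.75, 3.49 and 3.80 CPM (log2 fold change -1.55, SE 0.21, edgeR adjusted p = 0.000135). Drought and normal libraries were apart in both genes. The other rises were in LOC_Os04g03164, from 2.22, 5.29 and 4.01 CPM to 26.4, 20.5 and 23.5 CPM (3.15, SE 0.26), and LOC_Os07g09675, from 6.63, 6.90 and 7.91 CPM to 20.5, 27.7 and 22.3 CPM (2.27, SE 0.16), both described as expressed proteins only.

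The smallest p among the genes that fell in DJ belonged to LOC_Os11g42030, at 43.4, 38.9 and 41.6 CPM in normal and 6.27, 5.45 and 5.96 CPM in drought libraries (log2 fold change -2.27, SE 0.11, edgeR adjusted p = 2.14e-07). LOC_Os09g19150 fell from 38.9, 34.3 and 33.5 CPM to 6.43, 6.66 and 5.98 CPM (-1.94, SE 0.13) and LOC_Os06g18150 from 15.3, 16.5 and 14.8 CPM to 2.27, 1.41 and 2.21 CPM (-2.44, SE 0.19). None of the 16 genes called overlapped between drought and normal libraries. Called or not, 44 of the 54 genes of the list had no overlap in plain CPM, which lacks the TMM scaling. LOC_Os11g39160 was among them at a log2 fold change of 0.01. The share over all genes was not computed, so this count is no result about the list. In the run of NLR models on chromosome 11, the NB-ARC gene LOC_Os11g39190 fell from 48.8, 53.5 and 53.7 CPM to 19.6, 14.3 and 14.8 CPM (-1.14, SE 0.12, edgeR adjusted p = 1.94e-05), while the NBS-LRR gene LOC_Os11g39160 had 5.05, 6.31 and 4.89 CPM and then 3.81, 3.95 and 3.46 CPM (0.01, SE 0.18). Further along, LOC_Os11g39310 (-1.22, SE 0.16) and LOC_Os11g39320 (-1.93, SE 0.17) both fell.

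Some DJ-only genes with a high CPM were not called or only just called. LOC_Os06g23870, the acyl-CoA dehydrogenase domain gene, had 460, 418 and 455 CPM in normal and 263, 219 and 252 CPM in drought libraries, a log2 fold change of -0.32 (SE 0.11, edgeR adjusted p = 0.0288). LOC_Os06g21820, the putative jasmonate O-methyltransferase, had 64.0, 65.9 and 69.8 CPM under drought against 69.0, 111 and 86.5 CPM, and the groups overlapped (0.13, SE 0.15, edgeR adjusted p = 0.444). LOC_Os06g22394 fell from 58.4, 60.1 and 55.8 CPM to 22.1, 16.5 and 19.2 CPM (log2 fold change -1.05, SE 0.11), a call that the fold threshold removed with DESeq2 (-0.98), with RLE size factors (-0.96) and without drought replicate 2 (-0.98).

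**Figure D4:**
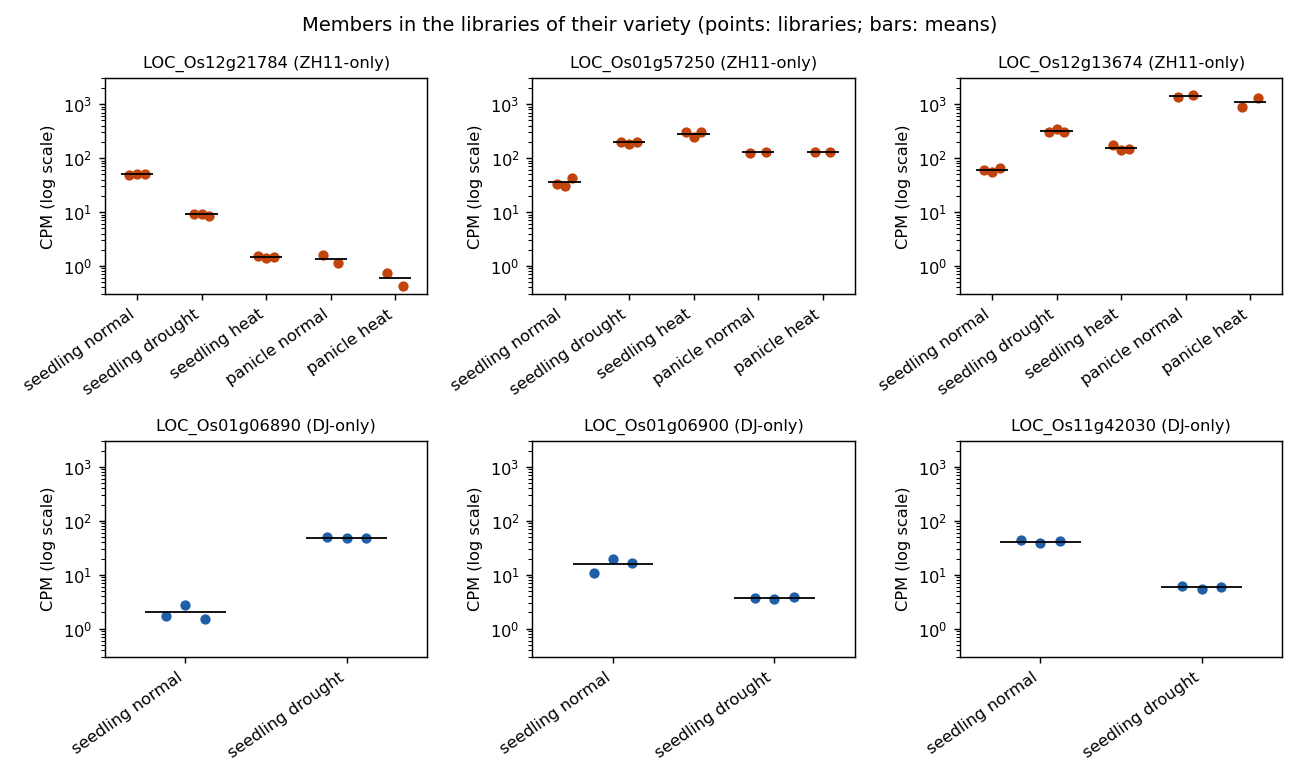
CPM on a log axis of 6 genes in the libraries of their own variety, with 1 point per library and a bar at each group mean: 3 ZH11-only genes in seedlings and panicles (upper panels) and 3 DJ-only genes in seedlings (lower panels). LOC_Os12g13674 is highest in panicles, at 870 to 1496 CPM, LOC_Os12g21784 falls from about 50 CPM in normal seedlings to under 2 CPM in heated ones, and the neighbours LOC_Os01g06890 and LOC_Os01g06900 cross between normal and drought libraries.

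Neighbouring genes did not always share a drought response in DJ. Beside LOC_Os11g42030 (-2.27), the adjacent LOC_Os11g42040 went from a mean of 24.2 CPM to 15.9 CPM, a log2 fold change of -0.07 after TMM (SE 0.10, edgeR adjusted p = 0.549). In log2 CPM over the 6 DJ libraries these 2 genes still correlated at r = 0.998. Of the other directly adjacent DJ-only pairs, LOC_Os11g39310 and LOC_Os11g39320 correlated at 0.998 and LOC_Os09g39290 and LOC_Os09g39300 at 0.891. LOC_Os11g40760 and LOC_Os11g40770 stood at -0.743, and LOC_Os01g06890 and LOC_Os01g06900 at -0.944. The difference between the fold changes of neighbours was not tested.

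The libraries labelled DJ-WT contained counts of both lists. Under drought, 34 of the 36 ZH11-only genes had at least 1 CPM in all 3 DJ-WT libraries, and so had 43 of the 54 DJ-only genes. None of the 90 was at 0.1 CPM or less in all 3. Under heat the numbers were 28 of 36 and 33 of 54, and 1 DJ-only gene, LOC_Os01g06890, was at 0.1 CPM or less in all 3. Of all genes at the minimum in ZH11 and in DJ seedlings, 99.64% and 99.63% had at least 1 CPM in every DJ-WT drought library. In the DJ-WT heat libraries it was 97% and 92.8%. Pid3, at 0 counts in all 6 DJ seedling libraries, had 4.75, 4.69 and 4.25 CPM in DJ-WT under drought and 1.49, 1.86 and 1.36 CPM under heat.

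Levels in the DJ-WT drought libraries stood near the middle between those of the varieties under drought. The median ratio of the ZH11-only genes to a ZH11 drought library was 0.540 to 0.587 over 9 pairs of libraries, and that of the DJ-only genes to the DJ drought library of the same replicate number was 0.457 to 0.485 over 3 pairs and to those of other numbers 0.421 to 0.547 over 6 pairs. Between same-numbered DJ-WT and DJ drought libraries, the log2 ratios of the DJ-only genes had an SD of 0.1003 to 0.159. It was 0.273 to 0.377 between libraries of different number and 0.271 to 0.329 between the DJ drought libraries themselves.

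The same held over 13669 genes with a mean of at least 10 CPM, in a comparison added after these ratios were seen. Each DJ-WT drought library was set against the mean of 1 DJ and 1 ZH11 drought library. The closest such mean had an SD of log2 ratios of 0.199, 0.232 and 0.236 for DJ-WT replicates 1, 2 and 3. It included the DJ drought library of the same number each time. The ZH11 drought library in it was replicate 3, 2 and 2, so the ZH11 number did not always match. Against 1 library of either variety alone, the lowest SD was 0.793 to 1.03 for DJ and 0.533 to 0.614 for ZH11. Replicates differed among themselves by 0.261 to 0.383 in DJ drought and 0.303 to 0.632 in ZH11 drought. What gave rise to this was not tested, and every difference between DJ-WT and onac023 in these genes rests on these libraries.

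**Figure D5:**
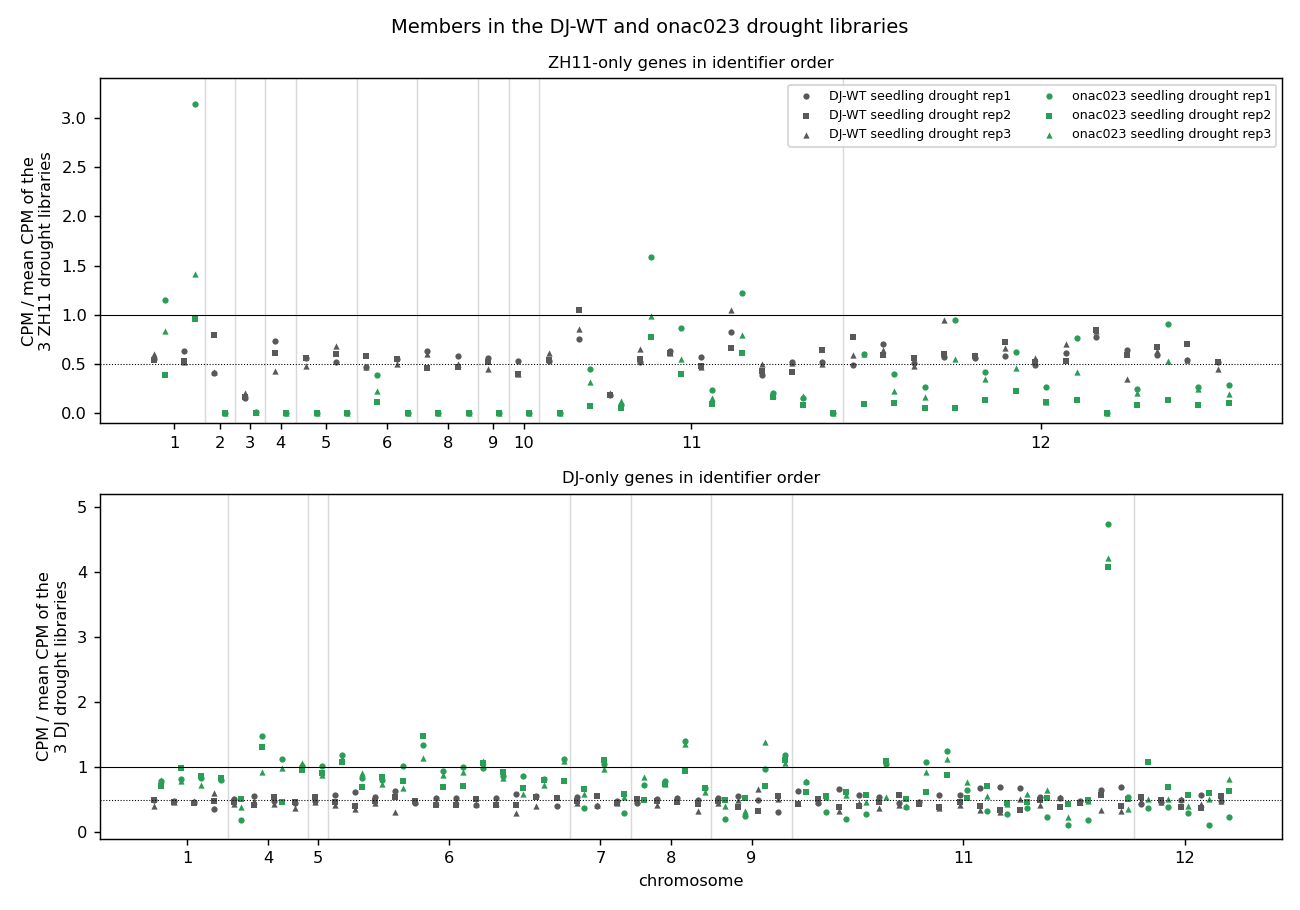
CPM of each gene in the DJ-WT (grey) and onac023 (green) drought libraries, divided by the mean CPM of the 3 drought libraries of the variety that expresses it, for the ZH11-only genes (upper panel) and the DJ-only genes (lower panel) in identifier order by chromosome. Symbols mark replicates 1 to 3, the solid line a ratio of 1 and the dotted line a ratio of 0.5. DJ-WT points lie near the dotted line in both panels, while onac023 points are at or near 0 for 10 of the 13 ZH11-only genes on chromosomes 1 to 10 and scattered on chromosomes 11 and 12.

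In onac023, the state of the ZH11-only genes went with the chromosome, a division made after the values were seen. Here a gene is called absent at 0.1 CPM or less in all 3 onac023 libraries and expressed at 0.5 CPM or more in all 3. The second level is lower than the 1 CPM used above, at which 14 genes were expressed under drought and 10 under heat. Under drought, 13 of the 36 were absent and 18 expressed. On chromosomes 1 to 10, 10 of 13 genes were absent in this sense, whereas on chromosomes 11 and 12 it was 3 of 23, with 16 expressed. Under heat, 4 of the 13 genes on chromosomes 1 to 10 were absent, 1 was expressed and 8 lay between, and on chromosomes 11 and 12 it was again 3 of 23, with 16 expressed and 4 between. The genes absent under drought included Pid3 and the adjacent LOC_Os05g30720 and LOC_Os05g30730, and the genes expressed included LOC_Os01g57250 (225, 75.2 and 163 CPM) and LOC_Os12g13674 (85.7, 18.7 and 52.4 CPM). Together the 13 absent genes had 6, 0 and 4 counts in the onac023 drought libraries, against 2945 to 3826 in DJ-WT. The onac023 drought libraries chose these genes, so their low sum there was fixed by the choice. In the onac023 heat libraries they had 2, 107 and 4 counts, so that replicate 2 stood apart, with counts in 10 of the 13 genes.

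The levels of the ZH11-only genes in onac023 varied between its replicates under drought. Over all 23 on chromosomes 11 and 12 the median ratio to the ZH11 drought mean was 0.287, 0.0963 and 0.227 in replicates 1, 2 and 3. Over the 20, 19 and 20 of them above 0.1 CPM it was 0.412, 0.105 and 0.282. The DJ-only genes of chromosomes 1 to 10 stood at 0.864, 0.786 and 0.840 of the DJ drought mean and those of chromosomes 11 and 12 at 0.352, 0.589 and 0.543. DJ-only genes under a ratio of 0.5 numbered 20, 5 and 10 in replicates 1, 2 and 3, of which 15, 3 and 7 lay on chromosomes 11 and 12. Replicate 1 was thus highest for the ZH11-only and lowest for the DJ-only genes of these chromosomes, and replicate 2 the reverse.

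DJ-WT and onac023 were compared under each stress. Under drought, 19 of the 36 ZH11-only genes were higher in DJ-WT and 2 lower, and 0 of the 54 DJ-only genes were higher and 30 lower, against 18.1% higher and 7.21% lower over all genes tested. The median log2 fold changes (DJ-WT over onac023) were 1.24 and -1.06, against 0.09 over all genes. TMM lowered these values by 0.37 relative to plain CPM, and without it 25 ZH11-only genes were higher and 1 lower, and 12 DJ-only genes lower. Under heat, 22 of the 36 ZH11-only genes were higher and 0 lower, and 17 of 51 DJ-only genes that could be tested were lower and 0 higher, against 9.04% and 2.24%. The medians were 1.43 and -0.69, against 0.03. Without TMM, which lowered these by 0.38, 26 ZH11-only genes were higher and 8 DJ-only genes lower. Without onac023 heat replicate 1 the counts were 12 and 11. With the replicate number as a block, 23 ZH11-only genes were higher, 1 lower and 18 DJ-only genes lower under heat.

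Single genes showed the size of these differences. LOC_Os09g24720, an expressed protein, had 20.8, 19.4 and 16.4 CPM in DJ-WT and 0 counts in all 3 onac023 libraries under drought, at least 252-fold higher in DJ-WT (edgeR adjusted p = 1.54e-05). LOC_Os10g42220 had 16.9, 12.7 and 12.8 CPM against 0.0913, 0 and 0.0471 CPM (log2 fold change 7.78, SE 0.42, edgeR adjusted p = 1.55e-05). Under heat, LOC_Os11g13934 (2.28, 2.70 and 1.95 CPM against 0 in all 3) was at least 39.9-fold and LOC_Os11g45090 (2.50, 2.04 and 2.35 CPM against 0.0351, 0.0386 and 0) at least 39.6-fold higher in DJ-WT. None of the onac023 values of these genes reached those of DJ-WT. The genes passed the filter on low counts through DJ-WT alone, so their tests are not given.

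In the opposite direction, LOC_Os06g21820, the putative jasmonate O-methyltransferase, had 30.4, 31.6 and 31.7 CPM in DJ-WT and 89.0, 98.5 and 76.4 CPM in onac023 under drought (log2 fold change -1.87, SE 0.10, edgeR adjusted p = 1.69e-05). Under heat it had 14.2, 13.2 and 14.8 CPM against 48.3, 45.5 and 46.3 CPM (-2.12, SE 0.14, edgeR adjusted p = 0.000505). LOC_Os11g45840 had 1.42, 1.26 and 0.769 CPM against 10.5, 9 and 9.29 CPM under drought (-3.42, SE 0.23, edgeR adjusted p = 2.55e-05), and 0.555, 0.143 and 0.263 CPM against 3.12, 2.87 and 2.44 CPM under heat (-3.52, SE 0.46). In DJ seedlings under drought it had 2.54, 2.31 and 1.76 CPM, so that onac023 stood above both. LOC_Os06g22394 had 21.6, 24.7 and 22.2 CPM against 42.2, 42.1 and 37.8 CPM under heat (-1.21, SE 0.15, edgeR adjusted p = 0.00243). The 2 resistance-type ZH11-only genes lower in DJ-WT under drought were LOC_Os01g57270 (2.07, 1.74 and 1.71 CPM against 10.2, 3.12 and 4.61 CPM, -2.07, SE 0.41) and LOC_Os11g32810 (6.25, 6.51 and 7.77 CPM against 18.9, 9.18 and 11.8 CPM, -1.33, SE 0.25), both without overlap. Without TMM, LOC_Os11g32810 (-0.96) and, under heat, LOC_Os06g22394 (-0.84) were short of the fold threshold.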

How the data were processed

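RNA-seq libraries of rice seedlings and panicles (31 in 2 experiments) were analysed; ChIP-seq libraries were not used here. According to the paper, reads were filtered with fastp and aligned to the MSU version 7.0 genome with STAR, whereas the submitters' processing notes name HISAT2, StringTie and DESeq2 as well; the counting tool is not given in the sources used here. The authors deposited the estimated count of each gene model in each library as whole numbers, without normalization, in 1 table per experiment. No column was left unused (0). Descriptions and symbols came from the study's tables, which pair 5048 identifiers with an annotation. The genes and lists were chosen with earlier results of these data known.

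CPM are counts over library totals. Counts were tested on the whole table with edgeR 4.0.16 (R 4.3.3; quasi-likelihood F-test, TMM, filterByExpr), fitting each pair of groups alone. A call needed an adjusted p (Benjamini-Hochberg) under 0.05 and more than a 2-fold difference. SE is the log2 fold change over the square root of F. Bounds use a floor of 3 counts per library and take in no variation beyond counting error. That floor is below 1 step in libraries whose most frequent low count was 4, and reads are not independent molecules. Alternatives were DESeq2 1.42.0 (Wald test), RLE size factors, no filter, the replicate block and each library left out, other thresholds of the rule, 0.5 CPM as expressed, and 5 or 20 ranks for runs. Drought libraries alone for the lists and library totals without TMM were chosen after seeing the data.

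Replicate numbers come from the labels. Same-numbered DJ-WT and onac023 heat libraries deviated together (r of 0.384, 0.331 and 0.114 over 23459 genes), so the numbers were taken to pair them in that comparison only. The values of single genes under heat and the interaction term were still fitted without this pairing, and only counts of calls are given with it. Genes named in the text are the 5 with the highest mean CPM of each list, members of runs of 3, the called genes with the smallest p (3 per direction and stress comparison, 2 per direction, list and DJ-WT comparison), genes with a symbol and the 2 nearest to each threshold. The genes of runs of 2, the panicle exceptions, the absent genes and those called in both stresses were named after their values were seen. The test was also tested on simulated data with known changes. Python 3.11.15, pandas 2.3.3, numpy 2.4.6 and matplotlib 3.10.9 served the other steps.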

Additional observations from a re-analysis of the deposited data

Results flagged for a closer look

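For 9 of the genes, the difference between DJ-WT and onac023 itself differed between heat and drought, by an interaction term fitted over the 12 libraries with edgeR's quasi-likelihood test (25773 genes tested, Benjamini-Hochberg adjusted p under 0.05). With the 2 named last, 11 of the 90 genes (12.2%) were under this threshold, against 34% of all genes tested. The values are log2 differences, heat minus drought, of DJ-WT over onac023. They were 5.53 for the RPP13-like gene LOC_Os01g57270 (adjusted p = 0.00206), 2.06 for the LRR gene LOC_Os11g32810, 2.59 for LOC_Os11g32780, 2.07 for LOC_Os01g57250 and 1.61 for LOC_Os11g38330 among the ZH11-only genes. Among the DJ-only genes they were 0.93 for LOC_Os07g09675, 1.05 for LOC_Os06g10355, -1.29 for LOC_Os06g21730 and -1.31 for the Ve2-like LOC_Os01g06900. LOC_Os01g57270 changed sign, at -2.07 under drought and 3.51 under heat: it had 10.2, 3.12 and 4.61 CPM in onac023 under drought but 0, 0.212 and 0 under heat, and its call under heat was lost without either of 2 DJ-WT libraries (replicates 2 and 3) or either of 2 onac023 libraries (replicates 1 and 3), at log2 fold changes of 2.90 to 3.56. LOC_Os01g57250 had 225, 75.2 and 163 CPM in onac023 under drought and 29.6, 41.9 and 21.8 under heat, while DJ-WT had 108, 106 and 117 and then 69.0, 91.0 and 135. A further 2 genes, LOC_Os11g45090 and LOC_Os09g24720, passed the same threshold with an onac023 group at 3 counts or fewer, where the fitted size is no measure. Batch and stress are not separated by the labels, and the libraries labelled DJ-WT hold genes of both lists.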

How the results depend on the processing

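Over 164 combinations of a gene and a comparison, 1655 of 1760 values under an alternative were counted as unchanged. A call was lost in 49 and gained in 56, and 0 called values reversed direction. Values not called in the main fit were counted as unchanged when their direction changed, so their direction was not followed. The lists depended on the libraries read: 179 ZH11-only genes were found from the drought libraries alone, and 27 DJ-only genes with 0 counts required in ZH11. Runs of at most 5 ranks held 23 genes. At 0.5 CPM, the level used above for onac023, 17 ZH11-only genes were expressed in onac023 heat, against 10 at 1 CPM. In heated panicles 1 DJ-only gene was expressed at 0.5 CPM, against 0 at 1 CPM. Without TMM, 6 ZH11-only genes were higher and 4 lower in ZH11 drought, 5 were lower in panicle heat, and DJ-WT had 1 ZH11-only and 12 DJ-only genes lower under drought and 8 DJ-only genes lower under heat. In panicle heat, 3 genes were lower with DESeq2 and 2 without the filter. DESeq2 gave 1 ZH11-only gene lower in DJ-WT under heat. The causes were not tested.

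The replicate block gave 4 ZH11-only genes lower in panicle heat and, in DJ-WT against onac023 under heat, 23 higher and 1 lower, with 18 DJ-only genes lower. It left 3 higher and 9 lower in ZH11 drought, 5 and 9 in ZH11 heat, 3 and 13 in DJ drought, and 21 and 2 (ZH11-only) with 29 lower (DJ-only) in DJ-WT drought. Outside DJ-WT heat, same-numbered libraries correlated at -0.0698 to 0.0966 in their deviations, so the numbers were not taken to pair those groups.

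Leaving out 1 library at a time, the lists held 36 to 37 and 54 to 57 genes. ZH11 drought gave 3 to 5 higher and 8 to 10 lower, ZH11 heat 4 to 6 and 8 to 10, DJ drought 3 and 13 to 15, and panicle heat 0 higher and 0 to 6 lower. In DJ-WT drought, 14 to 23 ZH11-only genes were higher and 2 to 3 lower, with 0 DJ-only genes higher and 24 to 31 lower. In DJ-WT heat it was 12 to 21 and 0 to 1, and 0 to 1 and 11 to 19.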
